A study of Mus musculus with 12 samples.

Results

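Carm1 and 6 other protein arginine methyltransferase genes, Prmt1, Prmt2, Prmt3, Prmt5, Prmt6 and Prmt7, were followed in single cells of 2-cell mouse embryos. They were chosen by name: every non-control probe that the array design names for one of these genes, or whose RefSeq accession belongs to it, was taken. This gave 16 of the 41174 probes on the array, for 7 of 21307 named genes. Of the 16 probes, 8 were well above background on at least 6 of the 12 arrays and were tested, 1 for each gene and a second for Prmt6.

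The samples were 12 single blastomeres, the cells of 6 embryos from naturally mated CF-1 mice, flushed from the oviduct about 36 h post coitus and separated by micromanipulation. No embryo had a treatment or a genetic change, and each embryo gave 2 sister cells, numbered 1 and 2 in the labels without saying what the number stands for. Pairs D, I and L belong to experiment 1. Pairs D, G and H belong to experiment 2, and its pair D is another embryo than pair D of experiment 1. Polyadenylated RNA of each cell was amplified, labelled and hybridised to 1 Agilent whole mouse genome array. The labels do not say whether the embryos of an experiment came from separate mothers.

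Protein arginine methyltransferases move a methyl group from S-adenosylmethionine to arginine residues of histones, RNA-binding proteins and other proteins. Carm1, Prmt1, Prmt2, Prmt3 and Prmt6 form asymmetric dimethylarginine, Prmt5 forms symmetric dimethylarginine, and Prmt7 forms monomethylarginine. Carm1 is known in mouse cleavage embryos for methylating histone H3, with amounts that can differ between blastomeres and that have been tied to the expression of pluripotency genes. The question asked here was whether its transcript, and those of its relatives, differed between sister cells more than transcripts of like signal.

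Detection varied between arrays, with 22.1 to 41.7% of spots well above background in experiment 1 and 31.2 to 78.8% in experiment 2. Signals were divided by the array's 75th percentile over the 5858 probes detected in this sense in all 12 cells and are given as log2, so that 0 is this percentile and the lowest value is a common floor of -4.12. Such values are relative to the rest of the cell's RNA, and the total RNA of a cell was not measured. Of 8 oocyte and early embryo markers, 7 were well above background on all 12 arrays, with Nlrp5 on 4. Markers of other cells were also present: all 6 stroma genes were lower in experiment 2, with a median difference of -4.86, as were 3 of 7 oviduct epithelium genes and Lyz2 of the blood list. Of 10 cumulus and granulosa cell genes, 4 were tested and 1 was higher in experiment 2, Amhr2, by 1.75 ± 0.46 (SE; limma, adjusted p = 0.0363). Amhr2 was well above background on 12 arrays, Cyp19a1 on 11, Amh and Inha on 6 each, and Fshr on 0. Their part in the results on the methyltransferases was not tested. Experiment 1 was read in Cy5 and experiment 2 in Cy3, on different slides, so experiment, dye, scan and slide cannot be told apart.

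By its brightest probe, Carm1 transcript was measured well above background in all 12 cells. The level by this probe differed between sister cells by over 1.5-fold in all 6 embryos. A second, dimmer Carm1 probe, described below, had the same brighter sister in 2 of the 4 embryos where it could be compared. For cells 1 and 2 of experiment 1, pair D read -2.64 and -1.36 on the log2 scale, pair I -1.97 and -2.66, and pair L -1.45 and -2.94. For experiment 2, pair D read -3.23 and -2.43, pair G -2.09 and -3.22, and pair H -2.20 and -1.31. Cell 2 was the brighter cell in 3 embryos and cell 1 in the other 3, and the ranges of cells 1 and cells 2 overlapped. The brighter sister exceeded the dimmer by 2.43-fold, 1.62-fold and 2.82-fold in pairs D, I and L of experiment 1. In pairs D, G and H of experiment 2 the folds were 1.75, 2.18 and 1.85. Each difference was 3.24 to 5.81 times the combined error that the scanner software gives for the spots, an error that covers the reading of a spot and not the amplification of a cell's RNA.

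**Figure D1:**
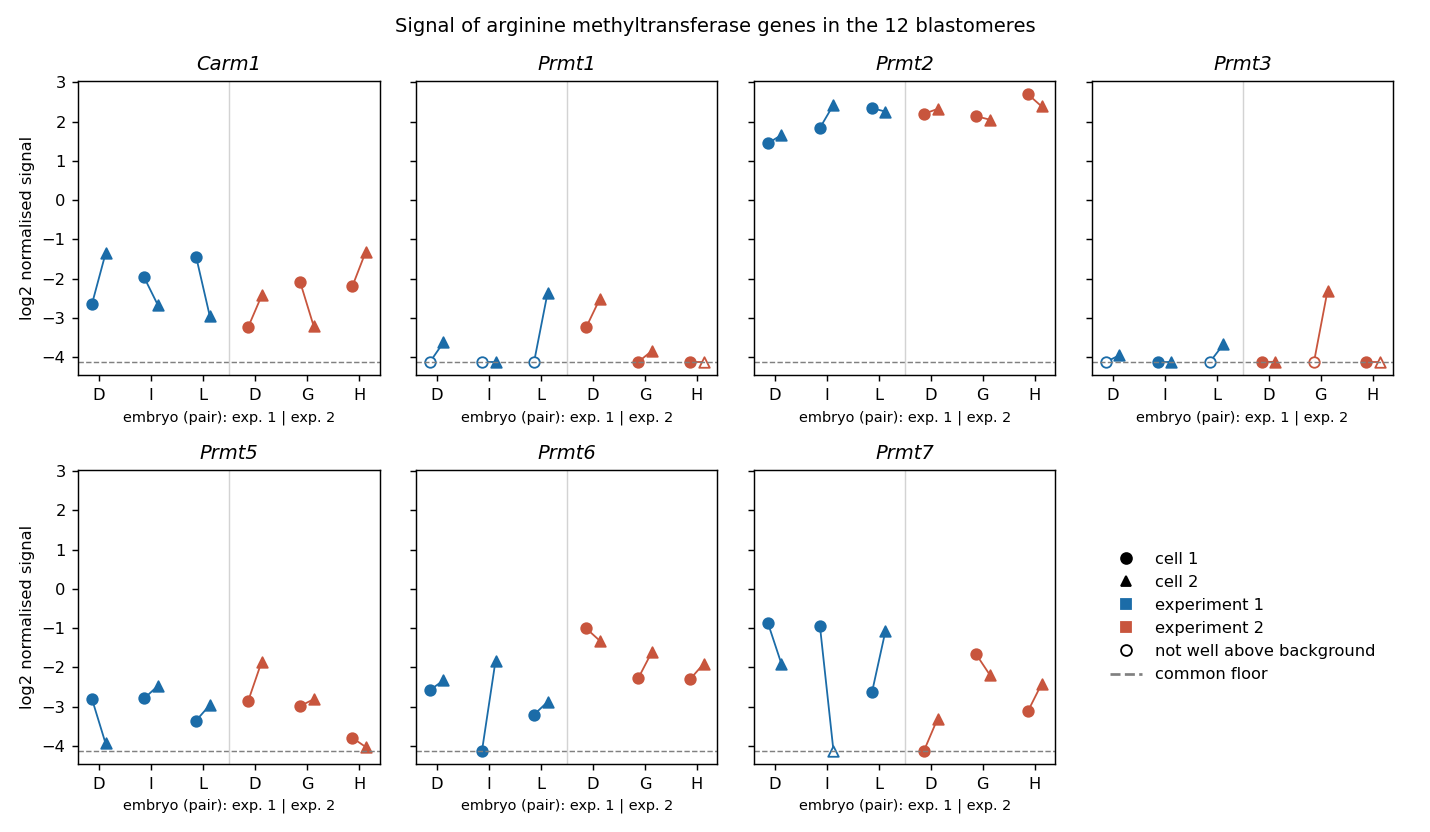
Log2 normalised signal of each gene's brightest probe (vertical axis) in the 6 embryos (horizontal axis), with lines joining sister cells, circles for cell 1, triangles for cell 2, blue for experiment 1 and red for experiment 2; open symbols were not well above background, and the dashed line is the common floor at -4.12. Carm1 sisters are apart in every embryo, in either direction, whereas Prmt2 sisters lie close together; levels cannot be compared between genes, since each has its own probe.

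The count of 6 of 6 embryos depended on the scaling. It was 6 with a lower floor and with a floor per array, 5 after quantile normalisation and in the authors' deposited value table, and 4 with normexp background correction and with scaling to the 75th percentile of all probes. The same Carm1 sister was the brighter one in all 6 embryos under each of these 6 alternatives. Prmt1 had a count of 2 in the main setting and 6 with the lower floor, after quantile normalisation and in the deposited table. The share of all tested probes with a count of 6 was 4.91% with the lower floor and 3.91% with a floor per array. It was 2.55% after quantile normalisation, 3.98% in the deposited table, 0.563% with normexp and 1.59% with the 75th percentile of all probes. In the main setting it was 0.827%, and 1.13% among probes well above background on all 12 arrays. It was higher among probes of like signal: 28 of the 500 tested probes nearest to Carm1 in the mean signals of both experiments, or 5.6%. Carm1's smallest sister difference, 0.70 in pair I of experiment 1, stood at percentile 96.4 of the smallest differences of these 500 probes, whose median was 0.14. Prmt7 stood at percentile 93 by this measure, and 5.4% of its own 500 nearest probes had sisters over 1.5-fold apart in all 6 embryos. The alternatives of the count and these comparisons with the nearest probes were added to the planned ones.

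Averaged over embryos, the Carm1 difference was within the range of probes of like signal. The mean absolute log2 difference between sisters was 1.05 (SD 0.31, n = 6 embryos), and among the 500 nearest probes the median was 0.81, with the 10th and 90th percentiles at 0.44 and 1.36. Carm1 stood at percentile 72.6 of these probes. The variance between sisters was 1.76 times the value that the trend over all probes gives at its signal. The median of this variance ratio over all tested probes was 1.37. For Carm1, limma's F test gave an unadjusted p of 0.364 and a Benjamini-Hochberg adjusted p of 0.822. No member passed this test, in which 0 of the 16694 tested probes (0%) were called. At an unadjusted p under 0.05 there were 136 probes (0.815%), Prmt3 among them. The largest variance ratio of any probe was 20.7, with an unadjusted p of 0.0228. A test that called no probe of the array does not show that Carm1 sisters were alike.

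**Figure D2:**
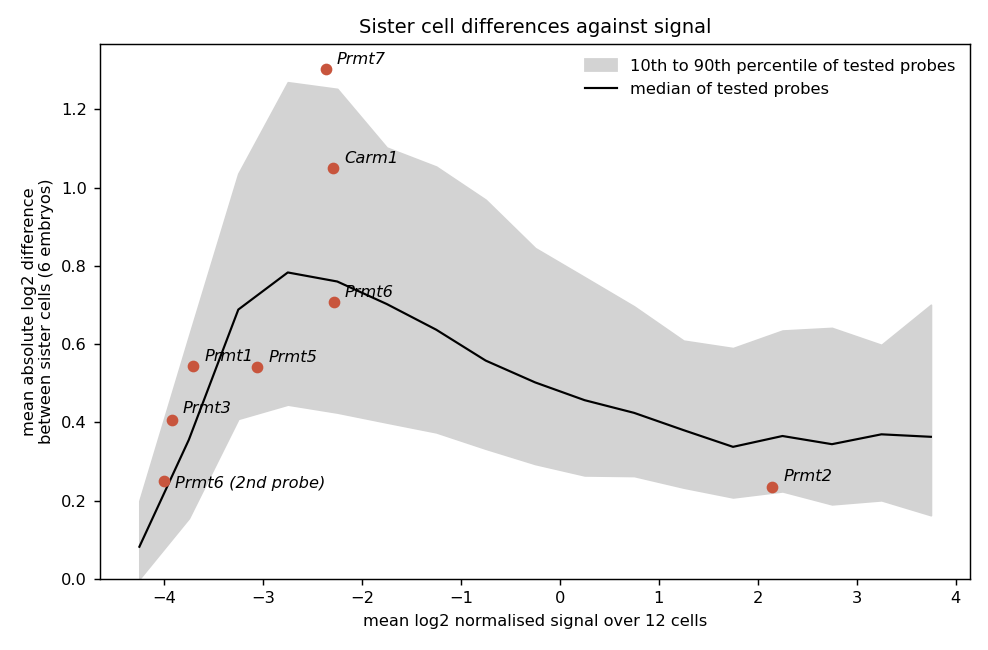
Mean absolute log2 difference between sister cells over 6 embryos (vertical axis) against the mean log2 normalised signal over 12 cells (horizontal axis), for the 8 tested probes of the methyltransferase genes (red points), with the median (line) and the 10th to 90th percentiles (grey) of all tested probes in steps of signal. Carm1 at 1.05 lies above the median and inside the grey band, and Prmt7 at 1.30 lies above the band in these steps of signal, though below the 90th percentile, 1.38, of its own 500 nearest probes; Prmt3 at 0.41 is above that of its own, 0.35.

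Sister cells were then set against unrelated cells. Sisters always shared a slide, whereas pair D of each experiment was on another slide than the other embryos, so many unrelated pairs crossed slides. Pairs of cells from different embryos of an experiment differed by 0.80 on average (SD 0.57, 24 pairs), against 1.05 for sisters. When the 6 cells of an experiment were matched in every possible way, the true pairing ranked 166 from the lowest mean difference, and the exact two-sided permutation test gave p = 0.533. Of all tested probes, 3.53% had a p under 0.05 in this test, each with sisters nearer than other pairings, and no member was among them. Sisters farther apart than other pairings cannot reach a p under 0.05 in this test, since many pairings share the largest mean difference. For Carm1, whose sisters were farther apart than the average pairing, the p of 0.533 cannot decide whether they differed more than unrelated cells. With scaling to the 75th percentile of all probes, Carm1 sisters differed by less than the average pairing, with an exact permutation p of 1.

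By embryo, the lowest mean Carm1 signal was -2.83 (SD 0.57, n = 2 cells), in pair D of experiment 2, followed by -2.66 (SD 0.80) in its pair G. Next came -2.31 (SD 0.49) in pair I, -2.19 (SD 1.06) in pair L and -1.997 (SD 0.91) in pair D of experiment 1, and the highest was -1.75 (SD 0.63) in pair H of experiment 2. Each step in this order was smaller than the SD of the cells of either neighbour. Carm1 did not pass the test between embryos within experiments (limma moderated F test, adjusted p = 0.716). No member passed that test, against 1.4% of all tested probes. In each experiment pair D was alone on its slide and the other pairs shared another slide. Differences of pair D from the other embryos therefore cannot be told apart from slide. With embryos compared only within slides, 0 members passed, against 0.282% of all tested probes.

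Neither cell number nor experiment gave a Carm1 difference that passed its test. Cell 2 minus cell 1 was -0.06 ± 0.43 (SE, 6 embryos), with an adjusted p of 0.978 in limma. The difference by cell number did not differ between the experiments for any member at an adjusted or unadjusted p under 0.05, where 5.27% of all probes had such an unadjusted p and 0 (0%) an adjusted one. Experiment 2 minus experiment 1 was -0.25 ± 0.51 (SE), with means of -2.17 (SD 0.68, n = 6 cells) and -2.41 (SD 0.73, n = 6) in experiments 1 and 2 and an adjusted p of 0.809. The brighter Carm1 sister was the cell with more detected spots in 2 embryos and the cell with fewer in 4.

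A second Carm1 probe was dimmer, well above background in 5 cells, and was not tested. Before the floor was applied it was brighter in cell 2 in all 6 embryos. In the 4 embryos where at least 1 sister was well above background for it, the direction was that of the first probe in 2, pairs D and H of experiment 2, and the opposite in pair I of experiment 1 and pair G of experiment 2. In that pair G the second probe read, before the floor, -8.70 in cell 1 and -3.65 in cell 2, where the first probe was brighter in cell 1. Before the floor, the second probe's difference was 4.48 and 7.09 times its spot error in these pairs I and G, so the probes disagreed there. It was 0.50 times in pair D and 7.80 times in pair H of experiment 2. In pairs D and L of experiment 1 neither sister was well above background for it.

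Prmt1, the main source of asymmetric dimethylarginine in most cells, was near the floor. Its probe was well above background in 8 of 12 cells, and the signal was over the floor in 5. These were -3.62 and -2.36 in cells 2 of pairs D and L of experiment 1, -3.24 and -2.53 in cells 1 and 2 of pair D of experiment 2, and -3.85 in cell 2 of pair G. Cell 2 was the brighter sister in the 4 embryos that differed, and both sisters were at the floor in pair I of experiment 1 and pair H of experiment 2. Before the floor, cells 1 and 2 read -5.71 and -7.33 in that pair H, with cell 1 brighter by 4.98 times the spot error. They read -6.49 and -5.64 in that pair I, a difference of 1.90 times the spot error. Cell 2 exceeded cell 1 by 0.54 ± 0.25 (SE), with an adjusted p of 0.674 in limma, in a test that called 0 of all tested probes (0%) and that 4.41% passed at an unadjusted p under 0.05. The mean absolute sister difference, 0.54 (SD 0.66, n = 6), was at percentile 69.4 of probes of like signal. Both means fell to 0.30 without pair L of experiment 1, whose sisters differed by 1.76. The percentile was 18.6 with normexp and 96.4 after quantile normalisation. Between embryos the adjusted p was 0.294 in limma, and 0.0301 without cell 1 of pair L of experiment 1, where 23.2% of all tested probes were called.

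Prmt2, a coactivator of nuclear receptors with weak methyltransferase activity, was bright in every cell and had the smallest mean sister difference of the 7 genes in the main setting. Cells 1 and 2 of experiment 1 read 1.45 and 1.66 (pair D), 1.84 and 2.43 (pair I), and 2.35 and 2.26 (pair L). Those of experiment 2 read 2.20 and 2.32 (pair D), 2.14 and 2.05 (pair G), and 2.69 and 2.39 (pair H). Pair D of experiment 1 held the lowest values, and only pair I of that experiment had sisters over 1.5-fold apart. The mean absolute difference was 0.24 (SD 0.19, n = 6), at percentile 16.2 of the 500 nearest probes, which at this brightness reach up to 1.59 away in signal. Unrelated cells differed by 0.42 (SD 0.27, 24 pairs), and the true pairing ranked 6 from the lowest mean difference, with an exact two-sided permutation p of 0.0622. This p was 0.0267 after quantile normalisation and 0.0444 with normexp and in the authors' deposited value table, where 5.03%, 28.1% and 8.15% of all tested probes had an exact permutation p under 0.05. Scaling to the 75th percentile of all probes gave an exact permutation p of 0.364, with a mean difference of 0.83 at percentile 40.6. With an embryo left out the exact permutation p ran from 0.0444, without pair I or pair L of experiment 1, to 0.311, without its pair D. That pair D was on another slide than pairs I and L. Adjusted over all tested probes, the exact permutation p of the main setting was 0.771. The test between embryos gave an unadjusted p of 0.0489 and an adjusted p of 0.166 in limma, a test in which 29.8% of all probes had an unadjusted p under 0.05.

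Prmt3, a cytosolic enzyme that methylates a ribosomal protein, was mostly at the floor. Its brightest probe, named for Prmt3 by the array design from a cDNA clone, read -3.96 and -3.68 in cells 2 of pairs D and L of experiment 1. It read -2.31 in cell 2 of pair G of experiment 2, and -4.12 in the other cells. The mean sister difference of 0.41 (SD 0.71, n = 6) was at percentile 96.6 of probes of like signal, and the variance ratio of 11.7 had an unadjusted p of 0.0464 and an adjusted p of 0.822. Without pair G of experiment 2 the percentile was 61.2 and the ratio 4.55. Between embryos the adjusted p was 0.573 in limma, and 0.0320 without cell 1 of that pair, where 6.85% of all tested probes were called. The 3 other Prmt3 probes, well above background on 3, 1 and 0 arrays, did not exceed the floor on any.

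Prmt6, a nuclear enzyme that methylates histone H3, was well above background in all 12 cells by its brightest probe. The array design names that probe for Prmt6 from a cDNA clone. The only probe matched to Prmt6 by RefSeq accession was well above background on 3 arrays and did not exceed the floor on any. The dimmest probes, well above background on 0 and 3 arrays, did not exceed it either. By the brightest probe, pair D of experiment 1 read -2.58 and -2.33, pair I -4.12 and -1.83, and pair L -3.20 and -2.88. Pair D of experiment 2 read -1.01 and -1.32, pair G -2.28 and -1.62, and pair H -2.30 and -1.91. Cell 2 was brighter in 5 of 6 embryos, by 0.60 ± 0.33 (SE) over all 6, with an adjusted p of 0.674 in limma, and by 0.26 without pair I. Pair I stood out, with a difference of 2.29. Its cell 1 was well above background but read -4.72 before the floor. The mean absolute difference of 0.71 (SD 0.79, n = 6) was at percentile 48.4, and at percentile 9 without pair I.

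In the main setting Prmt6 had the largest difference between the experiments of the 7 genes. Experiment 2 exceeded experiment 1 by 1.09 ± 0.48 (SE), with means of -1.74 (SD 0.52, n = 6) and -2.83 (SD 0.79, n = 6), an unadjusted p of 0.0440 and an adjusted p of 0.239 in limma. With normexp the difference was 0.39, smaller in size than those of Prmt3 (-1.16), Prmt1 (-0.91) and Prmt7 (-0.84). The ranges overlapped, and the median difference over all tested probes was 0.19. No member passed this test, against 8.1% of all tested probes, 3.95% higher and 4.15% lower in experiment 2. The cells of the 2 experiments overlapped for each member, while 7.66% of all tested probes had no overlap. A second Prmt6 probe, well above background in 7 cells, exceeded the floor in 2 cells of experiment 2, cell 1 in pair D and cell 2 in pair H. Before the floor, it was brighter in the same sister as the first probe in the 5 embryos where it could be compared. After the floor its sisters differed in 2 embryos. Both probes are named from the same cDNA clone, so their agreement is no separate evidence for the gene.

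Prmt5, the main source of symmetric dimethylarginine and part of a complex with Wdr77, was well above background in all 12 cells and dim throughout. The sisters of experiment 1 read -2.81 and -3.94 (pair D), -2.79 and -2.48 (pair I), and -3.36 and -2.96 (pair L). Those of experiment 2 read -2.86 and -1.85 (pair D), -2.99 and -2.81 (pair G), and -3.80 and -4.03 (pair H). Sisters were over 1.5-fold apart in pair D of each experiment. The mean difference of 0.54 (SD 0.41, n = 6) was at percentile 15.8 of probes of like signal. This percentile depended on the scaling. It was 43.4 after quantile normalisation and 55.4 with scaling to the 75th percentile of all probes, and 6.8 without pair D of experiment 1. The test between embryos gave an unadjusted p of 0.0485 and an adjusted p of 0.165 in limma. Experiment 2 minus experiment 1 was 0.002 ± 0.42 (SE).

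Prmt7, which forms monomethylarginine, had the largest mean sister difference of the 7 genes in the main setting, which rested on pair I of experiment 1. Without that pair it was 0.93, against 1.12 for Carm1, and after quantile normalisation 1.503, against 1.57 for Prmt1. Of experiment 1, pair D read -0.87 and -1.91, pair I -0.94 and -4.12, and pair L -2.64 and -1.07. Of experiment 2, pair D read -4.12 and -3.31, pair G -1.66 and -2.18, and pair H -3.11 and -2.42. Cell 2 of pair I was the only cell not well above background, and cell 1 of pair D of experiment 2 read -4.34 before the floor. Sisters were over 1.5-fold apart in 5 of 6 embryos, brighter in cell 1 in 3 and in cell 2 in 3. The mean difference was 1.30 (SD 0.99, n = 6), at percentile 87.2 of probes of like signal, and at percentile 62.4 without pair I. The variance ratio was 3.58, with an adjusted p of 0.822. Non-sister cells differed by 1.28 (SD 0.88, 24 pairs), with an exact two-sided permutation p of 0.933. Before the floor, a second Prmt7 probe, well above background in 5 cells, was brighter in the same sister in 1 of the 3 embryos where it could be compared.

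**Figure D3:**
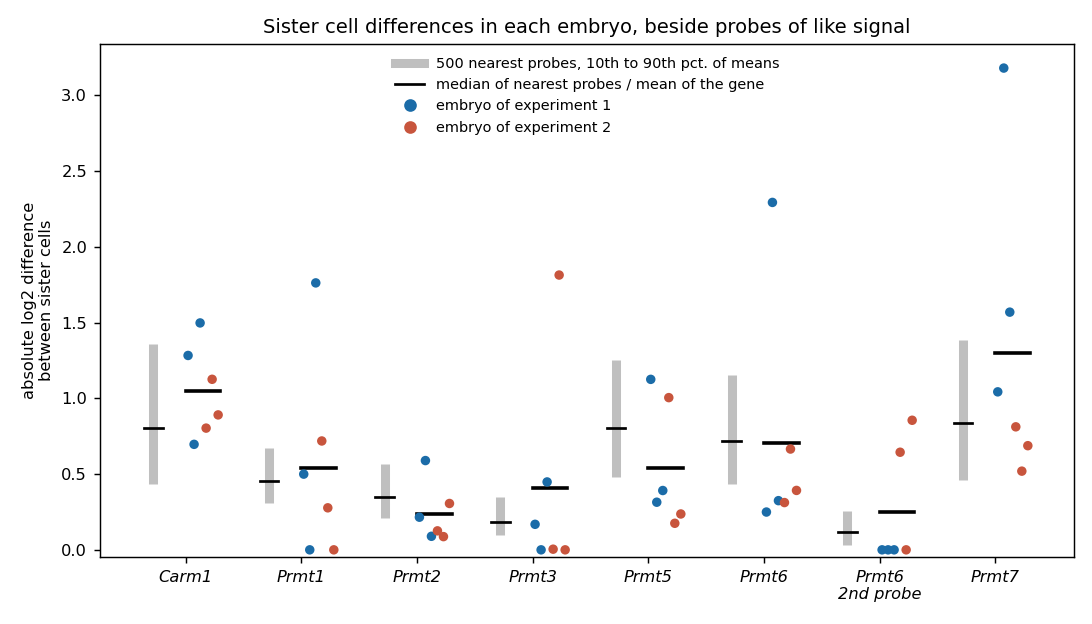
Absolute log2 difference between the sister cells of each embryo (vertical axis; points, blue for experiment 1 and red for experiment 2) for the 8 tested probes (horizontal axis), with the probe's mean as the longer black line and, to its left, the 10th to 90th percentiles (grey) and the median (short line) of the mean differences of its 500 nearest probes. All 6 Carm1 points lie at 0.70 or above, whereas Prmt1, Prmt3, Prmt6 and Prmt7 each have 1 embryo far above the others, at 1.76, 1.81, 2.29 and 3.18.

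Which sister was brighter varied among the members. The brighter sister for Carm1 was also the brighter for Prmt5 in 1 of 6 embryos, for Prmt2 and Prmt7 in 4, and for Prmt6 in 2. Over the 12 cells, centred within experiments, the correlation of Carm1 with Prmt5 was -0.63 and that of Prmt6 with Prmt7 was -0.62. These are descriptions over 12 cells that share 6 embryos and their arrays' scaling. By the same measure, over 4776 genes measured on all arrays, those most like Carm1 were Rnpep (0.87), Cdc37 (0.84) and Sars (0.82). Mboat2 (0.91), Auh (0.91) and Fam117b (0.90) were most like Prmt2. Ipo4 (0.87) and Mief1 (0.83) were among those most like Prmt5, and Zfand6 (0.88), Wdtc1 (0.85) and Senp3 (0.84) were most like Prmt6.

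The rest of the pathway was read from 8 lists with 59 genes, of which 49 were tested. None of these passed the sister variance, embryo or cell number tests, which called 0%, 1.4% and 0% of all tested probes. Between the experiments 1 of 49 (2.04%) passed, against 8.1% of all tested probes. That gene was Ddx4, a germ cell RNA helicase methylated on arginine, which rose by 3.28 ± 0.37 (SE) in experiment 2 (limma, adjusted p = 0.000416). No pathway gene had sisters over 1.5-fold apart in all 6 embryos, against 0.827% of all tested probes, and the median of their mean sister differences, 0.48, stood beside 0.48 for all tested probes.

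Of the enzymes that make and recycle S-adenosylmethionine, Mat2a, its synthase, was bright at 2.52 in experiment 1 and 2.15 in experiment 2, and its sisters differed by 0.24. Mat2b, the regulatory subunit, differed by 0.42 and Adk, which clears adenosine, by 0.42. Ahcy, which removes the inhibitory product S-adenosylhomocysteine, was dim, with sisters 1.00 apart on average. Spin1, a reader of histone methylation, and Tdrd3, which binds asymmetric dimethylarginine, had sister differences of 0.22 and 0.48. Riok1, an adaptor of Prmt5, differed by 0.37 and Btg1, a partner of Prmt1, by 0.88.

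Genes that act with Carm1 showed a range of sister differences. Pabpc1, a substrate, differed by 0.39 between sisters, Ncoa3, a nuclear receptor coactivator, by 0.28, Crebbp, an acetyltransferase, by 0.28 and Smarca4, a chromatin remodelling ATPase, by 0.72. Smarcc1, a remodelling subunit methylated by Carm1 and picked out after its value was seen, differed by 1.39 (SD 0.88, n = 6), more than Carm1, with a variance ratio of 3.31 and an adjusted p of 0.822. Of the paraspeckle genes tied to Carm1, Nono differed by 0.53. Sfpq, at the floor in all 6 cells of experiment 1, and Neat1, well above background on 7 arrays, have differences that the floor limits. Of the pluripotency genes placed downstream of Carm1, Pou5f1 differed by 0.52 and Sox21 by 0.57, both in all 12 cells, while Sox2 was well above background in 2 cells and Nanog in 0, which leaves no sister difference to compare with that of Carm1. Among substrates of Prmt1 and Prmt5, Fbl, Npm1 and Hnrnpa1 differed by 0.41, 0.17 and 0.27.

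**Figure D4:**
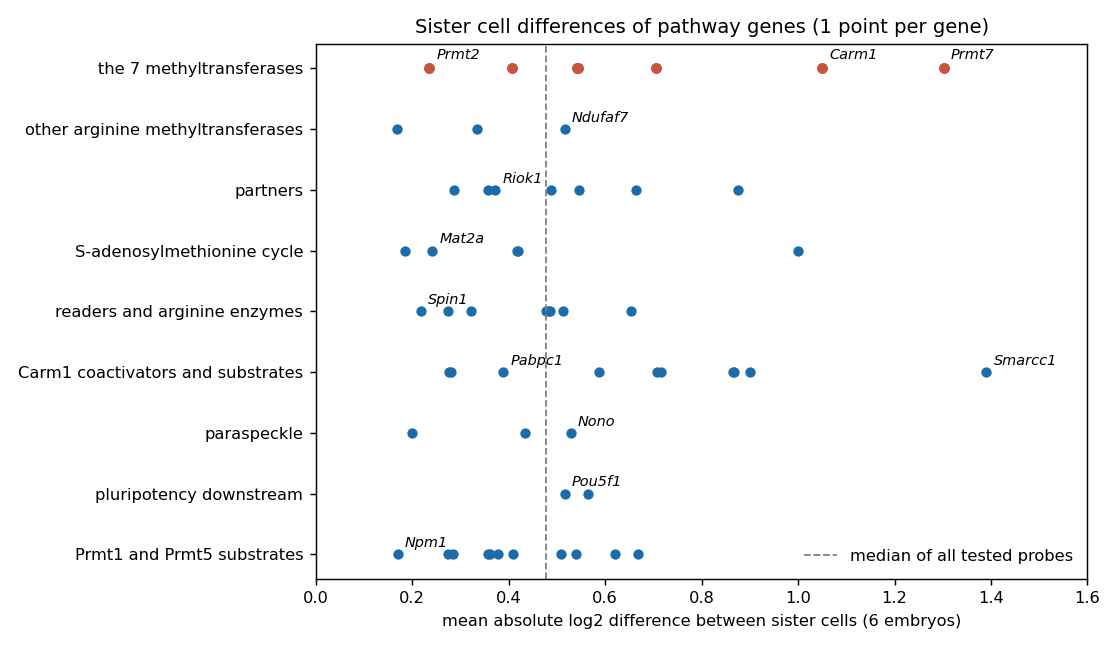
Mean absolute log2 difference between sister cells over 6 embryos (horizontal axis) for the 7 methyltransferases (red) and the tested genes of 8 pathway lists (blue), 1 point per gene and 1 row per list, with the median of all tested probes as a dashed line at 0.48. Named in each list is the gene of highest mean signal, and also Smarcc1, which at 1.39 is the only pathway gene beyond Carm1 at 1.05.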

How the data were processed

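Spot intensity was read from the authors' scanner files, made with Agilent Feature Extraction 9.1.3.1 according to the file headers. Experiment 1 carried its signal in Cy5, although its labels name Cy3. The deposited value table holds these intensities divided by 1 constant per array, with low values raised to a minimum that differs between arrays. The genome build of the array design is not given in the sources used here. Outlier spots were left out, spots of a probe averaged, signals divided by the array's 75th percentile, raised to a common floor and log2 transformed. The 16694 probes detected above background in 6 or more cells were tested, and 18 such probes with a missing value were left out. Each gene's brightest probe by mean signal stood for it.

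Sister variance, embryos, cell number (embryo as a fixed block) and experiment (embryo as a random block) were tested with limma 3.58.1 in R 4.3.3, with a Benjamini-Hochberg threshold of 0.05 over all probes, and sister pairing by exact permutation over all pairings. Tests were checked on simulated data with independent normal noise, no floor, and variances less scattered between probes than in the real data. That check does not show which differences the tests would recover here. Named genes were all members, the passing and up to 4 brightest genes of each list, and the 3 genes most like each member measured on all 12 arrays; Smarcc1, Sox2 and Nanog were named after their values were seen. The rule also named 1 gene that is not reported here. Members and lists were chosen with earlier results of these data known. The spread is between 6 embryos and between single cells, whose number limits the precision. Python 3.11.15 and matplotlib 3.10.9 drew the figures. Alternatives changed the normalisation, background correction, floor, filter, neighbours and blocks, and left out each cell or embryo.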

Additional observations from a re-analysis of the deposited data

Results flagged for a closer look

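In 2 of 14 groups of 6 cells (7 genes in 2 experiments), 1 cell stood apart from the other 5 by more than the limit for a single outlier. Chance exceeds that limit in about 1 in 20 groups of independent normal values. The rate does not hold for groups of sister cells with values at a floor. Prmt1 in cell 2 of pair L of experiment 1 was the highest of its 6 cells at -2.36, with the next at -3.62. Prmt3 in cell 2 of pair G of experiment 2 was the highest of its 6 cells at -2.31, with the next at -4.12. In both groups most of the other cells were at or near the floor, which narrows their spread.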

How the results depend on the processing

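The Carm1 percentile among probes of like signal was 66.2 to 81 with 1 embryo left out, and 57.8 (root mean square) to 87 (75th percentile of all probes) under the other alternatives. No member passed the sister variance, cell number, interaction or experiment tests under any alternative run. With cell number as a replicate block, 0 members passed the variance, embryo and experiment tests, and without the embryo block 0 passed for cell number. That embryo test and that cell number test called 0% of all tested probes, so their counts are no result about the members. The embryo test passed 2 members with normexp (Prmt1 and Prmt3, with 40.1% of all probes called), 1 with a floor per array (Prmt1, with 26.1% called), and 0 to 1 with a cell left out (with up to 23.2% called). At an unadjusted p, re-pairing passed 2 members with normexp (Prmt1 and Prmt2, with 28.1% of all probes), 1 after quantile normalisation (Prmt2, 5.03%), 1 in the authors' deposited value table (Prmt2, 8.15%), 1 with a floor per array (Prmt1, 19.9%), and 0 to 1 with an embryo left out (Prmt2, up to 2.95%).

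Of 1009 values of single members under alternatives, 57 changed direction and 12 passed a threshold they had missed in the main setting. The cause was not tested. For sister variance, percentile, cell number and interaction, a left-out embryo is counted for each of its cells, with the same values. Values that changed direction in the limma tests had adjusted p from 0.349 to 1. Cell 2 minus cell 1, with 1 embryo left out, was -0.33 to 0.23 for Carm1, -0.028 to 0.15 for Prmt2, -0.10 to 0.33 for Prmt5 and -0.65 to 0.30 for Prmt7. It was -0.043 for Prmt5 after quantile normalisation, and -0.43 for Prmt2 and -0.40 for Prmt5 with the 75th percentile of all probes. Its interaction with experiment, with 1 embryo left out, was -0.10 to 1.29 for Carm1, -0.80 to 0.082 for Prmt1, -0.20 to 0.70 for Prmt3 and -0.039 to 0.73 for Prmt5. With normexp it was 0.39 for Prmt1.

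Experiment 2 minus experiment 1, with 1 cell left out, was -0.11 to 0.37 for Prmt1, -0.10 to 0.37 for Prmt3 and -0.22 to 0.15 for Prmt5. With the 75th percentile of all probes it was -0.0080 for Prmt1 and -0.078 for Prmt5, and with normexp -0.91 for Prmt1, -1.16 for Prmt3 and -0.59 for Prmt5. For Prmt3 it was also -0.031 after quantile normalisation, -0.88 with a lower floor, -0.80 with a floor per array and -0.49 in the authors' deposited value table.

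The mean sister difference moved to the other side of the average pairing at 1.57 for Prmt1 and 1.503 for Prmt7 after quantile normalisation. With the 75th percentile of all probes it did so at 1.37 for Carm1, 0.24 for Prmt1, 0.16 for Prmt3 and 1.42 for Prmt7. Prmt3 did so at 0.91 with normexp, 1.92 with a lower floor, 1.28 with a floor per array and 1.70 in the deposited value table. With an embryo of experiment 1 left out, Prmt7 did so at 1.35 (pair D), 0.93 (pair I) and 1.25 (pair L). Without pair D of experiment 2 the values were 0.51 for Prmt1 and 0.78 for Prmt6, and without pair H 0.60 for Prmt5 and 1.42 for Prmt7. In the main setting, cells at the floor have no order below it, which limits the readings of dim probes. Carm1, Prmt2 and Prmt5, which were over the floor in every cell, were also among the members with values that changed direction.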
